A study of Rattus norvegicus with 3 samples.

Results

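Interferon-stimulated neutrophils were taken here as neutrophils that carry transcripts of Rsad2 (viperin, an enzyme that interferes with the replication of many viruses) outside the granule-gene and chemokine-burst groups of neutrophils. A cell was counted as a member when it had a unique molecular identifier (UMI, a tag that marks 1 captured transcript) for at least 2 of the 5 neutrophil genes Csf3r, Il1r2, Trem1, Cxcr2 and G0s2. It also had to lack any UMI of the macrophage genes C1qa, C1qb, C1qc and Csf1r, have under 3 UMIs of Mmp8 and Retnlg together, have under 1% of its UMIs from Ccl3 and Cxcl3, and have at least 2 UMIs of Rsad2. In all, 110 cells met the rule, of 41236 that passed the cell filter and 43701 deposited barcodes. They were 11 cells of the untreated wound, 95 of the hydrogel wound and 4 of the CO hydrogel wound. The 3047 gated neutrophils outside the same groups but with fewer than 2 Rsad2 UMIs (1236, 1460 and 351 in the same order) are called comparison neutrophils.

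The cells came from full-thickness skin wounds of 15 mm in male, wild type SD (Sprague-Dawley) rats of 8 to 10 weeks, made diabetic with 65 mg/kg streptozotocin and with blood glucose over 16.7 mM. Wounds were left untreated or covered with a gel of hyaluronic acid, either plain (hydrogel) or loaded to give off the gas carbon monoxide (CO hydrogel), and were taken at day 7. Diabetes was shared by all 3 groups, and no unwounded or non-diabetic skin was analysed here. There was 1 library per treatment and the labels do not give the number of animals behind it, so differences between treatments were not tested and their 95% intervals cover counting error only.

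Neutrophils are short-lived cells of the innate immune system that enter wounds early, kill microbes and release cytokines and proteases. Type I interferons (the interferon alpha and beta family) act through the receptor pair Ifnar1 and Ifnar2 and the factors Stat2 and Irf9, part of a complex that binds interferon-stimulated response elements in the promoters of antiviral genes. Interferon gamma, made mainly by T and NK cells, acts through Ifngr1 and Ifngr2, and is the classical inducer of Irf1, of guanylate-binding and immunity-related GTPases, and of the chemokines Cxcl9, Cxcl10 and Cxcl11; the gene sets of both types overlap.

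The neutrophil part of the label was checked first. Of the 110 members, 28 carried 2 of the 5 neutrophil genes, 52 carried 3, 26 carried 4 and 4 carried all 5. Csf3r, the receptor for granulocyte colony-stimulating factor, had 5 UMIs in the untreated members, 72 in the hydrogel members and 0 in the 4 CO hydrogel members. Those 4 cells held 5686 UMIs in all, so the marker was not detected there and its absence cannot be read from them. A Csf3r UMI was in 49 of all 110 members and in 1320 of 3047 comparison neutrophils. S100a9, an abundant neutrophil calcium-binding protein gene that the rule did not read, had a UMI in 10 of 11, 83 of 95 and 4 of 4 members. Acod1, the enzyme that makes itaconate in activated myeloid cells, had a UMI in 4 of 11, 81 of 95 and 1 of 4 members. B cell markers (Cd79a, Cd79b, Ms4a1, Jchain) were at 0 in all members, and the summed level of 8 T or NK cell markers was 0, 96.3 and 0 UMIs per 1000000 UMIs of the cells (CPM, the level used throughout). Transcripts of other classes were found in members and in comparison neutrophils. A UMI of 12 macrophage or monocyte markers outside the rule was in 8, 94 and 3 members. The same markers were in 1023 of 1236, 1446 of 1460 and 325 of 351 comparison neutrophils. For 9 dendritic cell markers the numbers were 2, 49 and 0 members, against 389, 775 and 152 comparison neutrophils. For 6 fibroblast markers they were 9, 86 and 4 members, against 1117, 1356 and 340 comparison neutrophils. Other neutrophil identity genes varied, with Fpr1, Fpr2 and Cxcr1 in 0 of 110 members, Itgam in 10 and Mxd1 in 96. In the same order they were in 34, 58, 0, 151 and 1969 of 3047 comparison neutrophils. The interferon part of the label rests on Isg15 and the genes described below.

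Members were of ordinary median depth for neutrophils, with median UMIs per cell of 2350, 1927 and 1294 by library (untreated, hydrogel, CO hydrogel). The medians were 2025, 1845 and 1522 in the comparison neutrophils. Levels and tests used summed UMIs, in which deep cells weigh more. The deepest member had 12067, 36512 and 1997 UMIs, of 40295, 301163 and 5686 over all members of the library. The comparison neutrophils held more deep cells: 26.9%, 16.8% and 23.9% of them had over 5000 UMIs, against 2 of 11, 11 of 95 and 0 of 4 members. They also held more connective tissue RNA, with at least 1% of UMIs from Col1a1, Col3a1, Dcn and Lum in 21.8%, 11.4% and 28.5% of cells, against 1, 3 and 0 members. For that reason the test was repeated among cells of 1000 to 3000 UMIs (the depth window). Between pairs of libraries 364, 600 and 477 barcodes were shared, and 1 member, a hydrogel cell, had a barcode found in another library. Of the members, 1, 10 and 0 had a doublet score (Scrublet) in the top range taken as possible pairs of cells. They were kept, and the test was repeated without them. Their removal took the member UMIs from 40295 to 32007 in the untreated library and from 301163 to 182726 in the hydrogel library.

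Members were most frequent in the hydrogel wound. They made up 0.194% of gated neutrophils in the untreated library (11 of 5686, exact binomial 95% interval 0.0966 to 0.346), 4.04% in the hydrogel library (95 of 2351, 3.28 to 4.92) and 0.901% in the CO hydrogel library (4 of 444, 0.246 to 2.29). The hydrogel interval did not overlap the other 2, whereas the untreated and CO hydrogel intervals overlapped. As ratios, hydrogel to untreated was 20.9, CO hydrogel to untreated 4.66 and CO hydrogel to hydrogel 0.223. These denominators include granule-gene and chemokine-burst neutrophils, which the rule bars from membership. Chemokine-burst cells alone were 3492 of 5686, 490 of 2351 and 41 of 444 gated neutrophils. Without both groups the shares were 0.882% (of 1247), 6.11% (of 1555) and 1.13% (of 355), which lowers both ratios to untreated. The untreated and CO hydrogel intervals then overlapped widely (0.441 to 1.57 and 0.308 to 2.86). As a share of all cells past the filter, members were 0.0919%, 0.662% and 0.0268%, so that the CO hydrogel library was then below the untreated one. These shares follow from the Rsad2 threshold that chose the cells and are a description. All cells past the filter with at least 1000 UMIs were thinned to exactly 1000 and gated again on the thinned counts. With 1 Rsad2 UMI asked for outside the granule-gene and chemokine-burst groups, the shares were 0.285% (of 5606), 5.57% (of 2281) and 2.15% (of 326). Before thinning they were 0.437% (of 5493), 7.59% (of 2265) and 2.68% (of 373), in the same order. The gated cells before and after thinning were thus not the same set. A share of cells with a UMI can include free RNA. After thinning, the share with a Rsad2 UMI among stromal cells (at least 3 Dcn UMIs and a Col3a1 UMI before thinning) was 0.0496%, 0.474% and 0.492%. The median depths of stromal cells were 14192, 12757 and 8702 UMIs.

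**Figure D1:**
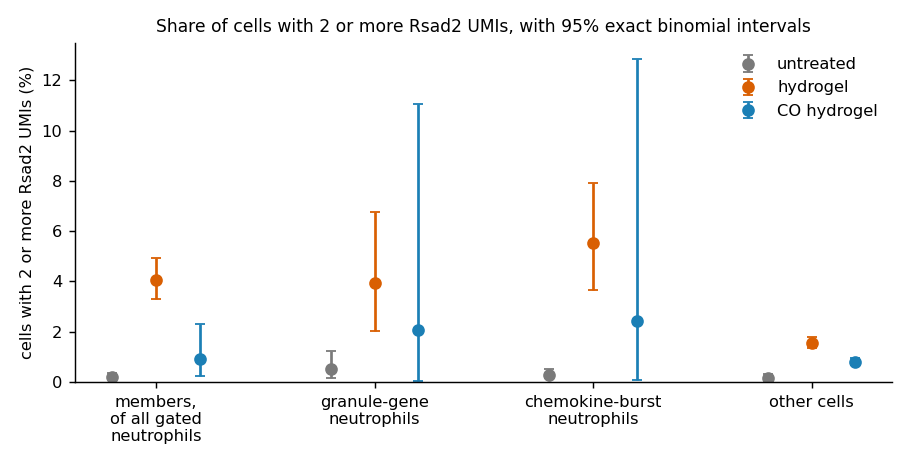
Percent of cells with 2 or more Rsad2 UMIs (vertical axis) by library (untreated, hydrogel, CO hydrogel), for members as a share of all gated neutrophils and for the excluded granule-gene neutrophils, chemokine-burst neutrophils and all other cells as a share of each set. Points are shares and bars are 95% exact binomial intervals; the hydrogel point is the highest in each set, at 4.04%, 3.92%, 5.51% and 1.56%.

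The neutrophils that the rule left out were counted in the same way. Among granule-gene neutrophils (3 or more UMIs of Mmp8 and Retnlg), at least 2 Rsad2 UMIs were found in 5 of 947 cells without treatment, 12 of 306 with the hydrogel and 1 of 48 with the CO hydrogel. Among chemokine-burst neutrophils, with 1% or more of UMIs from Ccl3 and Cxcl3, the numbers were 10 of 3492, 27 of 490 and 1 of 41. The hydrogel share was the highest in both groups, at 3.92% and 5.51%, although the CO hydrogel intervals reached 11.1% and 12.9%.

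Rsad2 itself, which chose the members, was at 1216, 1557 and 1935 CPM in the untreated, hydrogel and CO hydrogel members, with medians of 3, 3 and 2.5 UMIs per cell and a highest cell of 17, 26 and 4. Cells just outside the Rsad2 threshold had intermediate levels of other interferon genes. In hydrogel neutrophils with 0, 1, 2, 3 to 4 and at least 5 Rsad2 UMIs (1380, 80, 33, 29 and 33 cells), Isg15, which encodes a ubiquitin-like protein attached to other proteins after interferon, was at 1074, 5319, 6712, 7984 and 19667 CPM. Gbp2, a guanylate-binding protein, was at 275, 1489, 3051, 1831 and 6842 CPM across the same bands. Cells with a single Rsad2 UMI, just outside the rule, thus lay between cells with 0 and members. S100a9 stayed between 6420 and 10594 CPM over these hydrogel bands with no such order, and median depth stayed between 1835 and 2043 UMIs. In the untreated library Isg15 was at 462, 4077, 2820, 13858 and 43514 CPM over the same bands (1222, 14, 2, 7 and 2 cells), so the 2 members with 2 Rsad2 UMIs lay below the cells with 1. Median depth was uneven over these untreated bands, at 2027, 1625, 7092.5, 2219 and 2447.5 UMIs. There S100a9 was higher in the upper bands too, at 5242, 11294, 8460, 22578 and 28396 CPM. The CO hydrogel library, with bands of 344, 7, 2 and 2 cells and none with 5 or more Rsad2 UMIs, had S100a9 at 7610, 19055, 32413 and 37339 CPM.

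**Figure D2:**
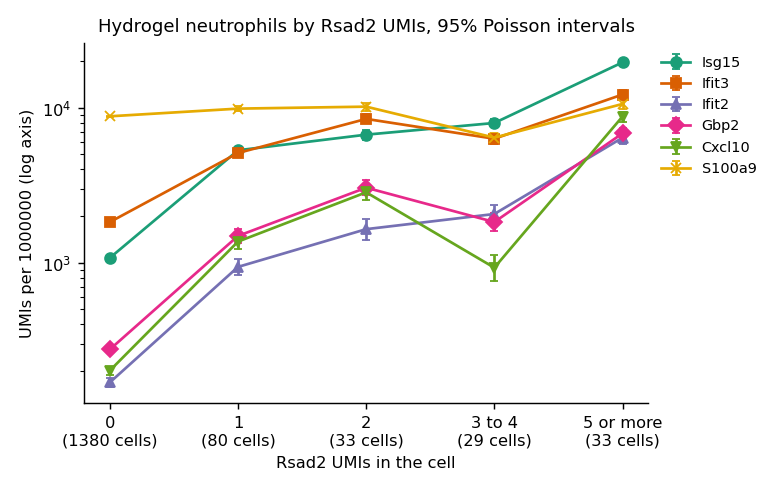
Level in CPM (vertical log axis, with 95% Poisson intervals) of Isg15, Ifit3, Ifit2, Gbp2, Cxcl10 and S100a9 in hydrogel neutrophils grouped by Rsad2 UMIs per cell (horizontal axis, with the number of cells). Isg15 goes from 1074 CPM at 0 to 19667 CPM at 5 or more, while S100a9 stays between 6420 and 10594 CPM.

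Members were compared with comparison neutrophils of the same library by summing counts per library and group and testing with edgeR, with the library as a block; genes of the rule were left out. Of 6119 genes tested, 65 were called higher (1.06%) and 42 lower (0.686%) at an adjusted p of 0.05, while the median log2 fold change of all genes was -0.34. In the depth window 54 of 1858 genes were called higher (2.91%) and 1 lower (0.0538%), with a median of -0.19. In all, 32 genes were called higher in both, which is 49.2% of the first list and 59.3% of the second; only 34 of the 65 were abundant enough to be tested in the window. The hydrogel library carried most of this evidence: without it 1 gene, Cmpk2, was called higher and 0 lower (34 and 62 genes at an unadjusted p of 0.05), without the untreated library 45 higher and 2 lower, and without the CO hydrogel library 64 and 45. The 3 libraries repeat the contrast between cells but are of different treatments, and p-values measure the spread between them.

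**Figure D3:**
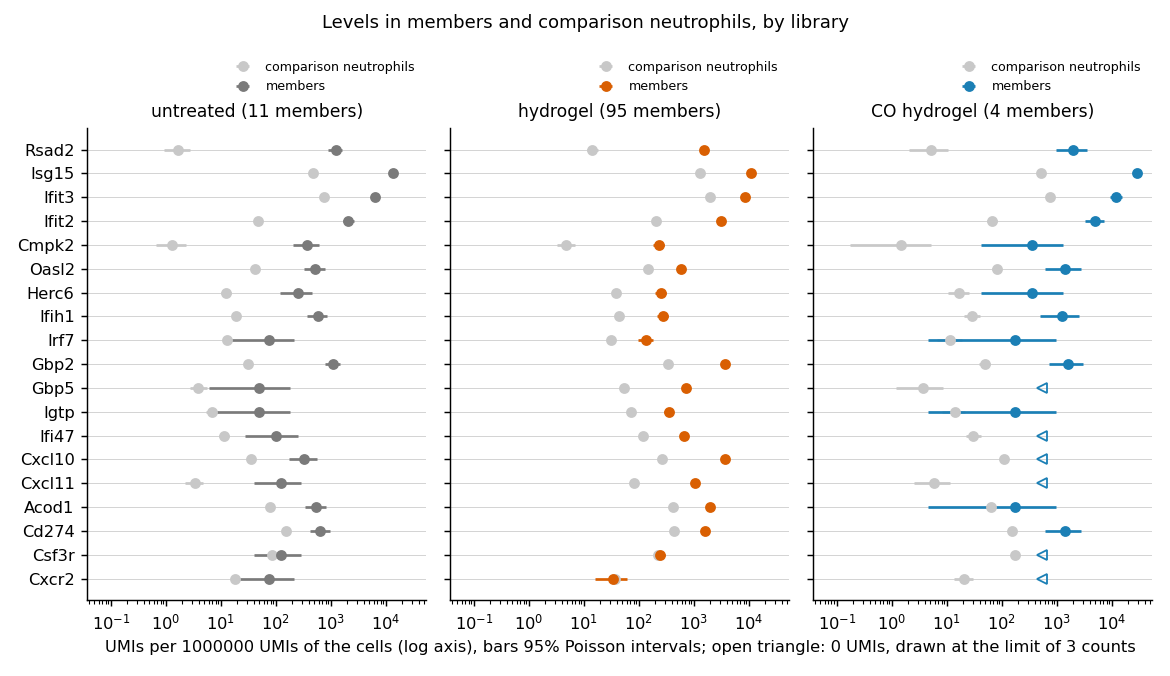
Level in CPM (horizontal log axis, bars 95% Poisson intervals) of 19 genes in members (coloured) and comparison neutrophils (light grey), 1 panel per library. Open triangles mark 0 UMIs, drawn at the limit that 3 counts allow; Rsad2, Csf3r and Cxcr2 were used by the rule, and the interferon genes lie to the right in members where detected.

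Antiviral effector genes were the group with the most calls. Of 49 listed, 43 were in the files under that symbol and 35 were tested; 14 were called higher and 0 lower, with a median log2 fold change of 1.79 against -0.34 for all genes. In the window 13 of 24 were called higher and 0 lower, with a median of 1.57. Unadjusted, 22 were higher and 1 lower at 0.05, and DESeq2 called 11 higher and 0 lower. Cmpk2, a mitochondrial nucleotide kinase gene next to Rsad2, was at 372, 229 and 352 CPM in the untreated, hydrogel and CO hydrogel members against 1.31, 4.83 and 1.45 in the comparison neutrophils. The groups did not overlap, and the log2 fold change was 6.65 (SE 0.66, adjusted p = 4.08e-20) and 6.29 in the window. Cmpk2 was carried by few cells, with a UMI in 5 of 11, 30 of 95 and 2 of 4 members.

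Isg15 was at 13575, 10712 and 28667 CPM in members and 482, 1283 and 524 CPM in comparison neutrophils. Every member library was above every comparison library, with a log2 fold change of 4.21 (SE 0.68, adjusted p = 5.98e-07; 3.25 in the window). It had a UMI in 107 of 110 members and in 1577 of 3047 comparison neutrophils. Ifit2, which binds viral RNA, was at 2085, 3098 and 4924 CPM against 48.1, 206 and 66.8, a log2 fold change of 4.82 (SE 0.73, adjusted p = 9.13e-08; 4.15 in the window). Its relative Ifit3 was at 6353, 8650 and 11783 CPM against 737, 1991 and 762, a smaller log2 fold change of 2.71 (SE 0.64, adjusted p = 0.00402; 1.62 in the window).

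The other members of the antiviral list called in both fits were Oasl and Oasl2 (oligoadenylate synthetase-like proteins), Herc6 (the ligase that attaches Isg15 in rodents), Isg20 (an exonuclease), Rtp4 and Trim21, with log2 fold changes from 2.38 (Oasl) to 3.36 (Herc6). Isg20 was at 844, 262 and 703 CPM in members against 36.5, 76.0 and 38.5 in comparison neutrophils. Ifit1bl, Xaf1, Mx2 and Epsti1 were called in the fit on all cells alone, and of these Ifit1bl reached an adjusted p of 0.0648 in the window while the others were not tested there. Lgals3bp, Ifitm3 and Slfn5 were called in the window alone (log2 2.28, 1.81 and 2.57); over all cells Lgals3bp and Ifitm3 had log2 fold changes of -0.35 and -0.79. Several of these genes have close paralogs between which reads may have been split, among them the Ifit, Oas and Gbp families.

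The promoters of 5 of these genes are shown because they carry, or in the case of Cmpk2 lack, a simple form of the interferon-stimulated response element. Each run is the 250 bases before the RefSeq gene start (build GRCr8, 5′ to 3′ on the strand of the gene), and capitals mark a match to GAAA, any 2 bases and GAAA again, on either strand. Rsad2 (chr6:48788121-48788370, minus strand) and Cmpk2 (chr6:48802600-48802849, plus strand) face away from each other with 14229 bases between these windows. The other 3 are Ifit3 (chr1:241527076-241527325, plus strand), Ifih1 (chr3:67683969-67684218, minus strand) and Gbp2 (chr2:234005477-234005726, plus strand).
Rsad2: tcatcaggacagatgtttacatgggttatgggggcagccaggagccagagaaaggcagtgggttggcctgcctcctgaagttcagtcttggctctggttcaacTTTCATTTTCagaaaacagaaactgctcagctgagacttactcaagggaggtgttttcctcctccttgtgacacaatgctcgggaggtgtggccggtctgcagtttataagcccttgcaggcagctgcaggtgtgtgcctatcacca
Cmpk2: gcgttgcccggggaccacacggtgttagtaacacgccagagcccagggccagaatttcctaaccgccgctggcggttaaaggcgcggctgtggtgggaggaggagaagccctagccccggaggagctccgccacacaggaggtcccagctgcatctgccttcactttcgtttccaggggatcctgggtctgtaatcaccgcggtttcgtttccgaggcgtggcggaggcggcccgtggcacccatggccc
Ifit3: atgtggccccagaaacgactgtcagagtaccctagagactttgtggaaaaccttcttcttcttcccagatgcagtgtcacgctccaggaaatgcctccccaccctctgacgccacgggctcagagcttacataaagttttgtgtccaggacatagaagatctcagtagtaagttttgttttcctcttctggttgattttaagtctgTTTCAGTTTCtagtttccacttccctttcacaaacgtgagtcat
Ifih1: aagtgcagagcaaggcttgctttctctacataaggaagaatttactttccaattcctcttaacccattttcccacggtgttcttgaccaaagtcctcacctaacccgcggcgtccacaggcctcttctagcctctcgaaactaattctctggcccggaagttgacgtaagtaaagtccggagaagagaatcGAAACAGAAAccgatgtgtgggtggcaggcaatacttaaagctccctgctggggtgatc
Gbp2: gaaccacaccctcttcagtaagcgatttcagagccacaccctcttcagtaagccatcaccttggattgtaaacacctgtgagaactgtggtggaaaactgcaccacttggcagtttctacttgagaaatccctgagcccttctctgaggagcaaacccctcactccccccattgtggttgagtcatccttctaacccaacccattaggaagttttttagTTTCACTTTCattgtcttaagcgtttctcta
The match starts 147 bases before the gene start in Rsad2, 44 in Ifit3, 59 in Ifih1 and 31 in Gbp2. Over the full promoter windows of 300 bases, this motif was in 20 of the 33 antiviral effector genes that had a promoter in the table (60.6%) and in 1312 of all 33469 promoters (3.92%). The first share counts a gene when any of its promoters matches and the second counts each promoter, so their units differ. A match is a description of letters, and Cmpk2, with the largest fold change, had none in its window. Its run does hold tttcgtttc, which reads GAAA, C and GAAA on the other strand, and such other forms of the element were not searched for. Isg15, Ifit2 and Usp18 had no entry.

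Genes for the sensing of nucleic acids, RNA and DNA, were thinly measured, and 2 of 13 found in the files could be tested. Of these, 1 was called higher and 0 lower. Ifih1, which encodes the double-stranded RNA sensor MDA5, was at 571, 272 and 1231 CPM in members against 19.0, 44.2 and 29.0 CPM in comparison neutrophils. The groups were separate, with a log2 fold change of 3.87 (SE 0.61, adjusted p = 3.15e-07; 3.08 in the window). Ddx58, which encodes RIG-I, had 1, 6 and 0 UMIs in members and Dhx58 (LGP2) had 2, 19 and 0, and both were too low to test. Znfx1, an RNA-binding helicase, and Rnf213, a large ubiquitin ligase, which were on no list, had log2 fold changes of 3.03 (SE 0.60) and 3.50 (SE 0.62), and 2.75 and 3.19 in the window. Samd9, a restriction factor of poxviruses, was at 769, 910 and 1583 CPM against 43.6, 201 and 63.9, with a log2 fold change of 3.26 (SE 0.65, adjusted p = 0.000205; 2.46 in the window).

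**Figure D4:**
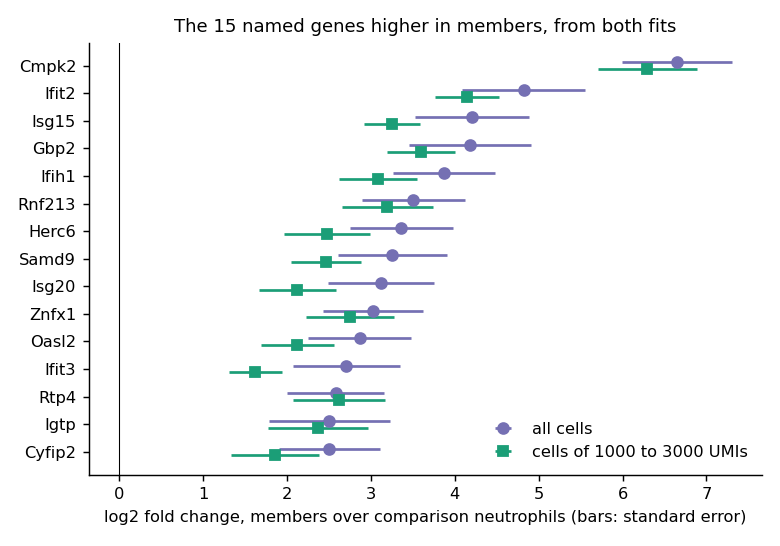
Log2 fold change of members over comparison neutrophils (horizontal axis, bars are standard errors) for the 15 called genes of largest increase among those with at least 50 UMIs and higher levels in members of all 3 libraries, over all cells (circles) and over cells of 1000 to 3000 UMIs (squares). All 15 lie above 0 in both, from 6.65 for Cmpk2 to 2.50 for Cyfip2, and the window gave a smaller value for each of them except Rtp4.

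Genes of interferon signalling gave 5 higher and 0 lower calls among 21 tested, with a median log2 fold change of 1.37, and 6 and 0 among 13 in the window; unadjusted, 10 were higher and 0 lower, and DESeq2 called 5 and 0. The factor Irf7, which amplifies type I interferon responses, was at 74.5, 133 and 176 CPM in members against 13.2, 30.8 and 11.6, a log2 fold change of 2.34 (SE 0.60, adjusted p = 0.0102; 1.86 in the window). Usp18, the protease that removes Isg15 and damps the receptor, had a log2 fold change of 3.33 (adjusted p = 1.36e-05) with 5, 47 and 0 UMIs in members. The ADP-ribosyltransferase Parp14 and the ligase Dtx3l were called in both fits, at 2.37 and 2.16. Stat2 passed in the window alone (1.91, adjusted p = 0.0216). Irf1, a factor induced strongly by interferon gamma, was at 447, 2118 and 0 CPM in members against 123, 582 and 189, and did not pass (1.23, adjusted p = 0.509).

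The GTPases that interferon gamma classically induces gave 4 higher and 0 lower calls among 6 tested, and 5 and 0 among 5 in the window, with medians of 2.72 and 2.37; unadjusted, 6 and 0, and DESeq2 called 3 and 0. Gbp2 was at 1092, 3606 and 1583 CPM in members against 30.7, 335 and 48.6 CPM in comparison neutrophils. All member values were above all comparison values, with a log2 fold change of 4.18 (SE 0.73, adjusted p = 5.82e-06; 3.59 in the window). Gbp5 was at 49.6, 707 and 0 CPM against 3.92, 54.6 and 3.63, and Igtp at 49.6, 349 and 176 CPM against 7.00, 72.3 and 13.8. For Gbp5 the untreated and CO hydrogel members rested on 2 and 0 UMIs, so its log2 fold change of 3.66 (SE 0.84, adjusted p = 0.00223) rests mostly on the 213 UMIs of the hydrogel members. Ifi47 and Irgm passed in the window (2.21 and 2.13) and not over all cells (adjusted p = 0.0527 and 0.0710).

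The receptors for interferon showed no call. Of 5 receptor genes tested 0 were called by edgeR in either fit or by DESeq2, and 0 had an unadjusted p under 0.05. Ifnar1 was at 49.6, 73.1 and 0 CPM in members against 41.8, 73.3 and 49.4, and Ifngr1 at 298, 209 and 703 CPM against 174, 256 and 216. These levels rest on 2, 22 and 0 and on 12, 63 and 4 UMIs. The log2 fold changes were 0.04 (SE 0.63) for Ifnar1, 0.44 (SE 0.66) for Ifnar2, 0.30 (SE 0.61) for Ifngr1 and 0.36 (SE 0.62) for Ifngr2, which does not show that the levels were equal.

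Among interferon-induced chemokines and immune ligands 2 of 11 were called higher and 0 lower, and 2 of 7 and 0 in the window; unadjusted, 4 were higher and 1 lower, and DESeq2 called 3 and 0. The 2 were Cxcl10 and Cxcl11, ligands of the T cell receptor Cxcr3. Cxcl10 was at 323, 3716 and 0 CPM in members against 35.6, 258 and 108 CPM, a log2 fold change of 2.70 (SE 0.80, adjusted p = 0.0456; 4.21 in the window). It was uneven among cells, with a UMI in 48 of 95 hydrogel members and 59.5% of its UMIs in the 9 highest of them. Cxcl11 was at 124, 1059 and 0 CPM against 3.32, 79.96 and 5.81, a log2 fold change of 4.07 (adjusted p = 0.000166). Acod1 was at 546, 1959 and 176 CPM in members against 79.5, 415 and 63.2, where the CO hydrogel value is 1 UMI in 1 of 4 cells, and did not pass (2.18, adjusted p = 0.103; 1.32, adjusted p = 0.0554 in the window). Cd274, the inhibitory ligand PD-L1, was at 645, 1597 and 1407 CPM against 151, 430 and 153 and did not pass either (2.04, adjusted p = 0.0823; 0.96 in the window).

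Class I antigen presentation gave 2 calls among 12 genes tested, and 2 among 11 in the window, all higher; unadjusted, 4 were higher, and DESeq2 called 2. Tap1, a subunit of the peptide transporter, had a log2 fold change of 2.38 (adjusted p = 0.0193) and RT1-S3, a non-classical class I gene, 2.33 (adjusted p = 0.00891). B2m, the shared light chain, was at 10498, 15198 and 12135 CPM against 3876, 6513 and 4064 and did not pass (1.07, adjusted p = 0.470; 0.71 in the window). Other genes called higher in both fits and on no list included Il18bp, the soluble inhibitor of interleukin 18, Trim26, Tagap, Aoah and Cyfip2; these were singled out after their values were seen, except Cyfip2.

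Neutrophil and inflammatory programs did not separate members from comparison neutrophils by this test. Of 15 neutrophil identity genes outside the rule 0 were called, with 6 higher and 0 lower at an unadjusted p under 0.05 and 0 called by DESeq2; the median log2 fold change was 0.97 over all cells and 0.07 in the window. S100a9 was at 18315, 8839 and 35174 CPM in members against 5274, 8872 and 7762, so the hydrogel values were nearly equal and the other libraries were not (0.97, adjusted p = 0.512; -0.21 in the window). Il1b, the main secreted interleukin 1, was at 9430, 14338 and 16004 CPM against 3877, 7589 and 3981 (1.052, adjusted p = 0.473; 0.04 in the window). Among 19 inflammatory cytokine genes 0 were called higher and 2 lower, Il6 and Cxcl6, both also made by stromal cells, and in the window 0 of 15 were called. Hypoxia and glycolysis (21 tested), cell death and survival (16), heme and antioxidant genes (15), dissociation stress genes (15), granule proteins (12) and housekeeping genes (12) gave 0 calls in edgeR. Their unadjusted calls were 3, 6, 1, 0, 2 and 0, and DESeq2 called 1, a granule protein gene that was lower. Of 9 genes of ageing and migration 0 were called, and in the window 1, Cd47, the signal that restrains phagocytosis, was higher (1.64, adjusted p = 0.0487; 0.24 over all cells).

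The 42 genes called lower included collagens and other genes of connective tissue cells. Col1a1 was at 2705, 2958 and 1583 CPM in members against 20287, 12182 and 16471 CPM in comparison neutrophils, and the log2 fold change was -3.05 (SE 0.65, adjusted p = 0.000590). Col3a1, Dcn, Lum, Postn, Pdgfra and the hyaluronan synthase Has1 were in the same list. C1qtnf3, a secreted protein gene, had 0 UMIs in all members against 269, 552 and 35 in comparison neutrophils. Of the 42 genes, 7 were abundant enough for the window and 0 of these were called lower there, with Col1a1 at -0.87 (adjusted p = 0.482). Summed fibroblast markers were at 11093, 6565 and 3869 CPM in members and 48908, 26122 and 43266 CPM in comparison neutrophils. The share of deep cells and of cells with connective tissue RNA, given above, moved with these calls, and their part was not tested. The single lower call in the window was Serpinb1a, an inhibitor of neutrophil serine proteases.

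Between the untreated and hydrogel members the antiviral genes had nearly the same share of UMIs, and the interferon gamma GTPases had a larger share in the hydrogel members. All members had passed the same threshold of Rsad2, itself an antiviral gene, whereas no GTPase was part of the rule. The antiviral effector list made up 3.63%, 3.66% and 6.93% of all member UMIs by library (untreated, hydrogel, CO hydrogel), against 0.777%, 1.19% and 0.975% in comparison neutrophils. The GTPase list made up 0.144%, 0.559% and 0.176% of member UMIs, against 0.00624%, 0.0640% and 0.0117%. By cell, the antiviral share ran from 0.622% through a median of 4.85% to 14.6% in the untreated members, from 0.205% through 4.995% to 14.0% in the hydrogel members and from 5.11% through 7.19% to 9.08% in the 4 CO hydrogel members. These ranges overlapped. The GTPase share had medians of 0.140%, 0.604% and 0.0840%, with highest cells of 0.678%, 3.36% and 0.573%. The hydrogel median was thus close to the highest untreated and CO hydrogel members.

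**Figure D5:**
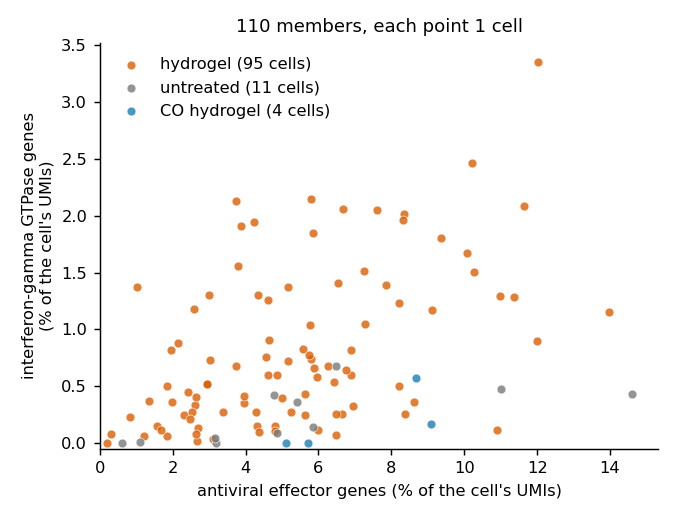
Each point is 1 of the 110 members, with the share of its UMIs from antiviral effector genes (horizontal axis, percent) and from interferon gamma GTPase genes (vertical axis, percent), coloured by library. Untreated and CO hydrogel cells reach 0.678% and 0.573% on the vertical axis and hydrogel cells 3.36%, while all 3 libraries overlap on the horizontal axis.

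Of 862 genes with at least 50 UMIs over the untreated and hydrogel members, 137 were at least 2-fold higher in the hydrogel members (15.9%) and 71 at least 2-fold lower (8.24%), and the median log2 ratio of all 862 was 0.15. All 4 GTPases measured were at least 2-fold higher (median log2 ratio 2.78, and 2.41 to 3.31 over the other settings tried), against 2 of 20 antiviral effectors higher and 1 lower (median 0.04, which ran from -0.27 to 0.56 and so changed sign). Gbp2 was 3.30-fold higher (log2 ratio 1.72, interval 1.29 to 2.19), Ifi47 6.76-fold (2.76, 1.378 to 4.65) and Gbp5 14.2-fold (3.83, 1.96 to 6.89) from 2 untreated UMIs. Ifit3 was 1.36-fold higher (log2 ratio 0.45, 0.26 to 0.64), Isg15 had a log2 ratio of -0.34 (-0.47 to -0.21) and Isg20 one of -1.69 (-2.28 to -1.06). The interferon signalling list had 4 of 9 genes at least 2-fold higher, among them Irf1 (4.74-fold) and Socs1 (9.57-fold), a feedback inhibitor of interferon receptors. Chemokines and ligands had 5 of 7 higher and 1 lower, with Cxcl10 11.5-fold (log2 ratio 3.53, 2.75 to 4.44), Cxcl11 8.54-fold, Acod1 3.59-fold and Cd274 2.48-fold higher. In comparison neutrophils 7 of 7 GTPases were at least 2-fold higher in the hydrogel library (median 3.41) and 20 of 36 antiviral effectors (median 1.08), where 579 of all 9478 genes were higher (6.11%) and 406 lower (4.28%), with a median of -0.06. The hydrogel library was thus the higher for the GTPases in both kinds of cell. The antiviral effectors had no direction among members but were higher with the hydrogel in comparison neutrophils. Members of each library had passed the same threshold of Rsad2, itself an antiviral gene, so their like antiviral levels cannot be told apart from the rule.

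Some of the highest ratios between these libraries came from single cells. Krt17, a keratin of wound keratinocytes, had 610 UMIs in hydrogel members, 594 of them in 1 cell, and Krt5 had 264, of which 262 were in 1 cell. Ccl4, a chemokine gene close to Ccl3, had 335 UMIs with 175 in 1 cell and 15 of 95 cells positive. Cd74, the class II invariant chain, had 286 UMIs over 32 cells with 116 in the highest, beside RT1-Da and RT1-Db1 in 18 cells each. Keratinocyte markers summed to 49.6, 3038 and 352 CPM in members, with a UMI in 17 of 95 hydrogel members, and dendritic cell markers to 74.5, 2052 and 0 CPM with Flt3, Xcr1, Clec9a, Ccr7 and Siglech at 0. Mural cell markers summed to 2159, 990 and 0 CPM in members against 565, 529 and 314 in comparison neutrophils, with all 87 untreated UMIs in 1 cell. Myh11, a smooth muscle myosin, was among the 65 genes called higher (log2 2.55, adjusted p = 0.000720), as were Lmod1 and Mustn1, with 16 and 23 Myh11 UMIs in 1 untreated and 3 hydrogel members; these 3 were singled out after their values were seen. Macrophage markers summed to 1415, 4874 and 1055 CPM, with Cd163 at 0 in all 3 and 648 of the 1256 Apoe UMIs of hydrogel members in 1 cell. The part of these transcripts in the differences and calls was not tested; Gbp5 had at most 13 of 213 UMIs in 1 hydrogel member and was found in 64 of 95. Among the lowest ratios were the stromal genes Fn1, Cst3, Mgp and Des, with log2 ratios of -3.31, -3.22, -2.38 and -2.76.

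The CO hydrogel members were 4 cells with 5686 UMIs in all, and their values carry wide intervals. Against the untreated members, 20 of 119 genes were at least 2-fold higher (16.8%) and 36 lower (30.3%), and against the hydrogel members 239 of 779 higher (30.7%) and 114 lower (14.6%). TMM scaling turned the balance of the second comparison, to 7 higher and 372 lower, and gave 2 higher and 55 lower in the first. The antiviral effectors had a median log2 ratio of 0.98 to untreated and 0.92 to hydrogel members; the second turned to -0.33 with TMM scaling, which lowered every such ratio by 1.26. Ifit1bl was at 6155 CPM against 1514 in untreated members, and S100a8 at 22687 against 6974 CPM. Cxcl10 and Irf1 were at 0 UMIs, where 3 counts would be 528 CPM. With 3 counts set in place of 0, Cxcl10 was 7.04-fold lower than in hydrogel members (log2 ratio -2.82). The counting-error interval of that ratio reached up to -2.52. Because Cxcl10 was uneven among the hydrogel members, 4 cells with 0 UMIs cannot set a least size for this difference. The interval of Gbp2 (9 UMIs, 1583 CPM) began at 724 CPM.

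Interferon genes differed between libraries outside neutrophils too. Gbp2 in macrophages (a UMI of at least 2 of C1qa, C1qb and C1qc) was at 50.9, 247 and 81.8 CPM by library (untreated, hydrogel, CO hydrogel), and in stromal cells at 13.9, 72.4 and 41.5 CPM. Both cell types had the hydrogel library as the highest, as in members. Isg15 was at 109, 191 and 137 CPM in macrophages and at 68.2, 152 and 147 in stromal cells. The GTPase list took 0.0128%, 0.0596% and 0.0191% of macrophage UMIs and the antiviral list 0.607%, 0.651% and 0.811%, so the antiviral share was highest with the CO hydrogel there.

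Transcripts of the interferons themselves were rare, and members had 0 UMIs of every interferon gene on the list. The bound set for a level of 0 was 74.5, 9.96 and 528 CPM in untreated, hydrogel and CO hydrogel members. Over all hydrogel cells Ifng, which encodes interferon gamma, was at 4.79 CPM, below each bound. The 0 in members therefore cannot show that they lacked these transcripts. Comparison neutrophils had 1 UMI of Ifng and 0 of Ifnb1. Ifng had 2 UMIs in 1 cell of the untreated library and 8 UMIs in 7 cells of the CO hydrogel library. It had 513 UMIs in 66 cells of the hydrogel library. In T cells of the hydrogel library 13 of 290 cells carried 103 of these UMIs, 47.7 CPM. Ifnb1, interferon beta, had 24, 61 and 151 UMIs, of which 24, 45 and 146 were in cells that met the macrophage gate; some of these also met the stromal gate. Ifng was thus highest in the hydrogel library, as were members and GTPases, and Ifnb1 in the CO hydrogel library; with 1 library per treatment, treatment and library cannot be told apart.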

How the data were processed

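Droplet single-cell RNA was measured in 3 libraries (12883, 15442 and 15376 deposited barcodes; 78233883, 109148721 and 109718517 UMIs). The deposited values are raw UMI counts per gene and barcode, made by the authors with Cell Ranger 6.0.1 per the file headers; per the submitters' processing notes the tools were Seurat 4.2.0, DESeq 1.38.0 and another Cell Ranger version, 7.0.0, with build rn6. Of 32883 features, 18604 had a symbol. The cell filter asked for 500 UMIs, 300 genes and no more than 20% of UMIs from mitochondrial genes. Members, lists and tests were chosen with earlier results of these data known.

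Counts of members and of comparison neutrophils were summed per library (6 sums) and tested with edgeR 4.0.16 (quasi-likelihood, TMM, filterByExpr with a minimum count of 10, library as block because both sums come from the same library, Benjamini-Hochberg over all genes, threshold 0.05) in R 4.3.3; all adjusted p-values are from it. DESeq2 1.42.0 was an alternative. The scripts were tested on simulated data. CPM have exact Poisson and shares exact binomial 95% intervals, for counting error only, and ratios between libraries were computed for genes with at least 50 UMIs. A level of 0 was set to 3 counts for a bound. Doublets were scored with Scrublet in scanpy 1.11.5, taking the top 0.8% per 1000 barcodes. Named genes are those of 17 lists, the 15 highest and 15 lowest called genes with at least 50 UMIs whose sign was shared by all 3 libraries, the 10 highest and 10 lowest ratios per pair of libraries, leaving out rule, ribosomal, mitochondrial, hemoglobin, immunoglobulin and unnamed genes. Alternatives changed the Rsad2 threshold, comparison cells, depth, cell filter, scaling, low-count filter, block and libraries; those on connective tissue RNA, shared barcodes and TMMwsp were added after seeing the data. Promoters are from RefSeq (GRCr8). Results for some list genes are not reported here.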

Additional observations from a re-analysis of the deposited data

Results flagged for a closer look

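Rsad2 was also found outside the neutrophil gate. Of other cells past the filter, 1.56% in the hydrogel library (187 of 11995) and 0.801% in the CO hydrogel library (116 of 14481) had at least 2 Rsad2 UMIs, above the upper limit of 0.313% in the untreated library (11 of 6279, 0.175%). Of these cells, 80 in the hydrogel library, 5 in the CO hydrogel library and 5 in the untreated library carried the neutrophil genes and had been left out for a UMI of C1q genes or Csf1r.

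For 8 genes of the lists the members lay above the comparison neutrophils in 1 library and below them in another, beyond counting error. Only genes of the lists were screened, and the intervals were not adjusted for the number of genes. Some opposite signs can thus arise from the screening alone. The intervals also leave out the spread between cells, and the differences between libraries were not tested. The log2 ratios in the untreated, hydrogel and CO hydrogel members were 1.10, -0.16 and 2.004 for S100a8, the partner of S100a9. They were 1.87, -0.38 and 1.60 for Pglyrp1, a granule protein that binds peptidoglycan, and 1.29, -0.23 and 2.37 for Lrg1, a secreted glycoprotein of neutrophils. For Fth1, the ferritin heavy chain, they were 0.70, -0.34 and 1.39. The early response genes Fos and Ier2 had ratios of 1.31, 0.10 and -1.72 and of 1.10, -0.26 and 1.67. Tmsb4x, an actin-binding peptide gene, had -0.72, -0.21 and 0.55. Prdx1, a peroxide-removing enzyme, had -1.21 in the untreated and 0.31 in the hydrogel members and too few UMIs in the CO hydrogel members.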

How the results depend on the processing

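The order of the libraries in the share of members (hydrogel, CO hydrogel, untreated) held with a threshold of 1 Rsad2 UMI (untreated 0.440%, hydrogel 7.44%, CO hydrogel 2.48%), and in cells of at least 1000 UMIs with 1 Rsad2 UMI (0.437%, 7.59%, 2.68%; hydrogel 5.57% after thinning). As a share of all cells past the filter it was 0.0919%, 0.662% and 0.0268%, where the CO hydrogel was lowest. The hydrogel share was 2.64% with 3 Rsad2 UMIs. Without the granule and chemokine groups in the denominator it was 6.11%, the untreated share 0.882% and the CO hydrogel share 1.13%.

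The counts of genes called, 65 higher and 42 lower, moved more. With 3 Rsad2 UMIs, or against all other gated neutrophils, 5 were lower; in the depth window 1; with a stricter cell filter 17. Removing high doublet scores gave 230 higher and 208 lower, and cells under 1% connective tissue UMIs 24 and 8. Library sizes alone gave 99 lower, TMMwsp 32 higher and 1 lower, DESeq2 39 higher. With no replicate block for the library, 177 were higher and 193 lower. Leaving out 1 library gave 1 to 64 higher and 0 to 45 lower, the lowest without the hydrogel library. The causes were not tested.

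Lgals3bp turned positive against all other gated neutrophils (0.038), in the window (2.28), without doublets (0.056), under 1% connective tissue UMIs (1.01) and without the untreated library (0.022; -0.94 without the hydrogel library), and Ifitm3 in the window (1.81) and under 1% (0.054). Without the hydrogel library Cd47 (-0.16), Socs1 (-0.59) and Slfn5 (-0.018) turned negative; without the untreated library they were 0.51, 1.88 and 0.31, the highest of the 3 fits that leave out 1 library.

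Between libraries, the counts at least 2-fold higher and lower were, with TMM, 296 and 24 (hydrogel to untreated), 2 and 55 (CO hydrogel to untreated) and 7 and 372 (CO hydrogel to hydrogel). In the depth window they were 69 and 31, 1 and 5, and 37 higher for the last pair. With a minimum of 20 UMIs they were 350 and 207, 51 and 94, and 1096 higher. CO hydrogel to untreated also gave 5 and 21 by per-cell means, 9 and 16 with 3 Rsad2 UMIs, and 13 and 18 under 1% connective tissue UMIs. Ratios that changed sign were Krt17 (0.70, CO hydrogel to hydrogel, per-cell means), S100a4 (0.13, hydrogel to untreated) and Naca (0.10, CO hydrogel to hydrogel) in the window, and, with 3 Rsad2 UMIs, Cst3 (2.03) and RT1-Da (-0.11) for hydrogel to untreated and Crip1 (0.37) for CO hydrogel to hydrogel.

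With 4 CO hydrogel members, 1 UMI is 176 CPM, and levels below that were not detectable there.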
